A study of Saccharomyces cerevisiae with 6 samples.

Results

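Positions 1 to 3396 of the yeast 25S rRNA were compared between a snoRNA mutant strain, called the knock-out, and wild type. They were taken from 2 of the 6 samples of the series by label, and they make up 3396 of the 5196 rRNA positions in the deposited sample files. The knock-out is strain YWD486, whose plasmid bears the snR67-snR53 region with 1 base exchanged so that LSU-G2619 is not methylated, and its RNA came from whole cells. Wild type is strain BY4741, and its mature large subunit (LSU) rRNA was purified from a gel. A knock-in strain, YWD680, with a plasmid for an artificial snoRNA against LSU-U2954, was set beside them in whole-cell RNA and in gel-purified LSU rRNA. Whether the knock-out strain keeps a chromosomal copy of the guide, and how many clones or cultures were used, is not stated in the labels. Strain and RNA preparation differ together between the libraries compared, so their parts cannot be told apart.

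RiboMeth-seq reads methylation as an absence. Alkali cuts an RNA chain through the 2'-hydroxyl of the ribose, and a methyl group on that oxygen prevents the cut, so that a methylated nucleotide lacks fragment ends. In yeast the box C/D snoRNAs pair with the rRNA and place the methyltransferase Nop1 on the chosen nucleotide. The guide snR67 has 2 targets in 25S rRNA, LSU-Gm2619 and LSU-Um2724, whereas snR53 directs methylation in the small subunit. Pseudouridines are made with another class of guides, the box H/ACA snoRNAs, and base methylations by stand-alone enzymes, so that neither depends on a box C/D guide.

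The wild-type library held 1229170 read ends on 25S rRNA and the knock-out 214862, with medians of 333 and 51 per position. RNA 3' ends made up 49.7% in wild type, against 49.6% in the knock-out. The knock-in libraries held 734670 (whole cell, 2 runs combined) and 1197181 (gel-purified). There was 1 sample on each side, so that no p-value was calculated and all intervals are 95% intervals for counting error, which assume independent reads and do not cover error between samples. The runs of the knock-in whole-cell sample differed widely. Between them the SD of the log2 ratio of read-end shares was 1.50 over 3256 unlisted positions, against 0.99 over 3317 positions between knock-out and wild type.

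LSU-G2619, at position 461700 of chromosome XII (minus strand, coordinates of the deposited files), had 5 read ends in wild type, against 114 in the knock-out. The knock-in libraries, in which snR67 is not labelled as altered, had 24 in whole-cell RNA (6 and 18 by run) and 27 in gel-purified LSU rRNA. Per 10000 read ends on 25S rRNA these were 0.0407 in wild type, 5.31 in the knock-out, 0.327 in knock-in whole-cell RNA and 0.226 in knock-in LSU rRNA. The knock-out stood apart from the other 3 libraries. Its share of read ends was 130-fold that of wild type (interval 54.3 to 409). The width of the interval came from the 5 read ends in wild type. Against the pooled whole-cell knock-in runs, which share the RNA type of the knock-out, the ratio was 16.2. Among the 3357 positions with at least 50 read ends over both libraries LSU-G2619 ranked 1 by this ratio, and LSU-1556, at rank 2, had a ratio of 27.8. LSU-G2619 passed this filter only through its read ends in the knock-out, and 6 of the 37 ribose sites passed it at all. The rank is thus a description and not separate support for the change.

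The change was present in both kinds of read end. Of the 114 read ends in the knock-out 102 were RNA 3' ends and 12 were RNA 5' ends, where wild type had 3 and 2. The 12 neighbours, 6 on each side, ranged from 20 to 103 RNA 3' ends and from 1 to 9 RNA 5' ends in the knock-out. LSU-G2619 thus had more 5' ends than any of its neighbours and more 3' ends than all but 1 of them. In wild type all 12 neighbours exceeded it, with 46 to 412 RNA 3' ends and 18 to 77 RNA 5' ends. The ratio to wild type was 195 (64.9 to 961) from RNA 3' ends and 34.2 (7.62 to 315) from RNA 5' ends.

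A protection score relates a position to its neighbours and is 1 minus its read ends over the weighted mean of 6 positions on each side, with negative values set to 0. LSU-Gm2619 scored 0.978 (0.948 to 0.993) in wild type, against 0 in the knock-out. Before negative values were set to 0, the read ends in the knock-out were 1.65 times the mean of the flanks (1.34 to 2.01), against 0.0221 times (0.00716 to 0.0516) in wild type. In the knock-out the position thus had more read ends than the mean of its neighbours. In the knock-in the score was 0.889 in whole-cell RNA (0.906 and 0.882 by run) and 0.895 in gel-purified rRNA. In the authors' deposited table Score A, a different statistic, was 0.927 in wild type, against 0 in the knock-out.

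**Figure D1:**
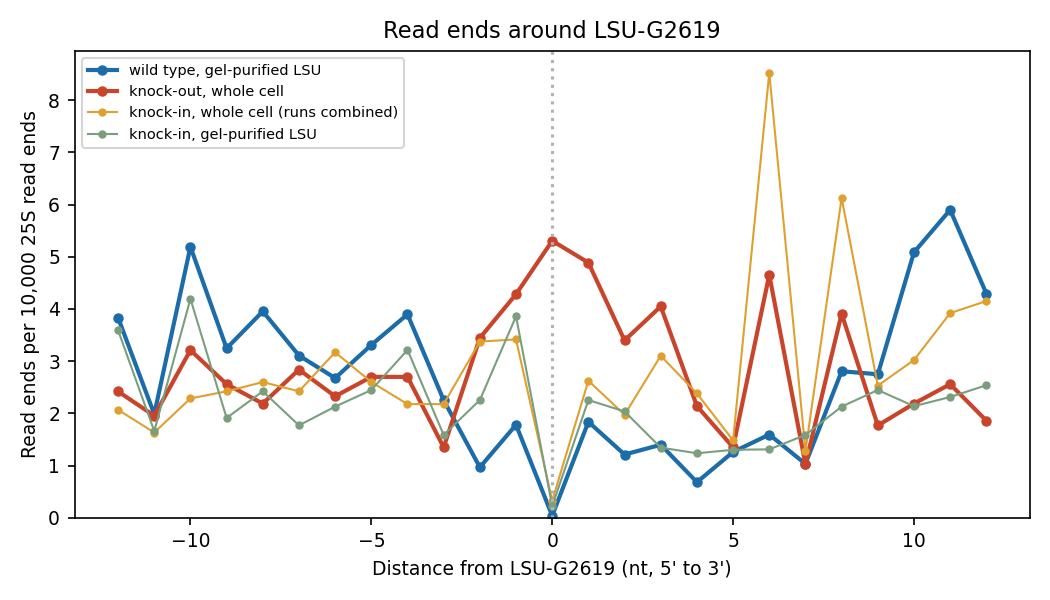
Read ends per 10000 read ends on 25S rRNA (y axis) at the 12 positions on each side of LSU-G2619 (x axis, distance in nucleotides) in wild type, the knock-out and the knock-in libraries, 1 point per position and library. At distance 0 the knock-out stands at 5.31 and wild type at 0.0407, and the knock-out is also above wild type at the positions from LSU-2617 to LSU-2623.

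Of the 12 neighbours of the target 7 had at least a 2-fold larger share of read ends in the knock-out, and their ratios ranged from 0.599 to 3.56 with a median of 2.53. At LSU-2613 to LSU-2616, on the 5' side, the ratios were 0.869, 0.815, 0.693 and 0.599. The positions next to the target were those with larger shares. LSU-2617 had 119 read ends in wild type, against 74 in the knock-out, LSU-2618 had 219 and 92, LSU-2620 had 226 and 105, and LSU-2621 had 149 and 73. Since the knock-out library was several times smaller, these are increases in share. LSU-2617 to LSU-2623 were a stretch in which every position was called higher, so that its summed ratio is a description. Over its 6 positions, the target left out, the share was 2.82-fold that of wild type (2.52 to 3.15), with 2.40 to 3.56 at the individual positions. The same 6 positions had 2.14 times the wild-type share (1.97 to 2.33) in knock-in whole-cell RNA and 1.65 times (1.52 to 1.79) in knock-in LSU rRNA, where LSU-G2619 kept scores of 0.889 and 0.895. The fold at LSU-G2619 was 46.3 times that of these 6 neighbours in the knock-out, 3.75 times in knock-in whole-cell RNA and 3.37 times in knock-in LSU rRNA. All of these ratios share the wild-type library as the denominator.

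The second target of snR67, LSU-Um2724, had 5 read ends in wild type, against 2 in the knock-out, beside flanking means of 257 and 23.1. It scored 0.981 (0.955 to 0.994) and 0.914 (0.685 to 0.990), a difference of -0.07 whose interval of -0.30 to 0.01 held 0. The knock-in libraries gave 0.942 and 0.919 there. By this score LSU-Um2724 was thus protected in the knock-out, at a depth that leaves a loss of up to 0.30 within counting error. In the authors' deposited table Score A at LSU-Um2724 was lower in the knock-out, at 0.604 beside 0.930 in wild type and 0.724 in knock-in whole-cell RNA.

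Around these targets, the known ribose sites from LSU-Am2640 to LSU-Gm2815 scored from 0.752 to 1.00 in the knock-out. LSU-Am2640, guided by snR68, had 20 and 3 read ends and scored 0.958 in wild type, against 0.945 in the knock-out. LSU-Gm2791 and LSU-Gm2793, both guided by snR48, had 8 and 4 read ends in wild type and 0 and 1 in the knock-out, with scores of 0.975 and 0.982 against 1.00 and 0.974. LSU-Gm2815, guided by snR38, had 5 read ends in wild type, against 0 in the knock-out. The lowest score among them was that of LSU-Um2729, which lies 5 nucleotides from the second snR67 target and is guided by snR51. It had 16 read ends in wild type, against 8 in the knock-out, and scored 0.940 (0.902 to 0.966) and 0.752 (0.506 to 0.893). The difference of -0.19 (-0.44 to -0.04) fell short of the limit of 0.2 set for a call. It passed that limit from RNA 3' ends alone, at -0.23 (-0.62 to -0.03), and in the authors' deposited table, where Score A was 0.766 in wild type, 0.277 in the knock-out and 0.394 in knock-in whole-cell RNA. By the computed score its values in the knock-in were 0.859 in whole-cell RNA and 0.926 in LSU rRNA.

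Across the other 36 known ribose sites of 25S rRNA, protection in the knock-out was close to that in wild type. A site was called when its score differed by at least 0.2 and the counting interval of the difference excluded 0. By this rule 1 of the 36 was lower, and over all 3384 scored positions 10.5% were. None of the 36 was higher, beside 15.8% of all positions, but 35 of them scored at least 0.8 in wild type, where a gain of 0.2 is out of reach. The count of lower sites moved with the score and the reference, to 9 with the authors' deposited Score A, where size alone made the call, and to 0 against the pooled knock-in runs. At 28 of the 36 sites the scores differed by less than 0.1, and at 26 by less than 0.05. The median absolute difference was 0.0197, against 0.0438 between the runs of the knock-in whole-cell sample over the same sites.

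Guides with several targets allow sites of 1 snoRNA to be read side by side. The targets of U18, LSU-Am649 and LSU-Cm650, had 4 read ends each in wild type and 1 each in the knock-out, with scores of 0.979 in wild type at both and of 0.982 and 0.981 in the knock-out. In the authors' deposited table Score A at LSU-Am649 was lower in the knock-out, by -0.32. U24 has 3 targets, LSU-Cm1437, LSU-Am1449 and LSU-Gm1450, which scored 0.971, 0.986 and 0.986 in wild type. In the knock-out they scored 0.975, 0.974 and 0.986, with 2, 2 and 1 read ends. The targets of snR60, LSU-Am817 and LSU-Gm908, were less protected, at 0.849 and 0.958 in wild type and 0.882 and 0.905 in the knock-out, and neither difference interval excluded 0. LSU-Um2921 (snR52) and LSU-Gm2922, adjacent sites in the peptidyl transferase region, scored 0.991 and 0.984 in wild type, then 0.985 and 1.00 in the knock-out. These positions were named for their guides after their values were seen.

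Positions without any read end were few. In the knock-out there were 11 among 3396 positions, and all 11 were known ribose sites. They were LSU-Am807 (snR39), LSU-Um1888 (snR62), LSU-Am2220 (snR47), LSU-Am2256 (snR63), LSU-Am2280 and LSU-Am2281 (snR13), LSU-Um2417 (snR66), LSU-Gm2791 (snR48), LSU-Gm2815 (snR38), LSU-Gm2922, which the enzyme Spb1 methylates, and LSU-Am2946 (snR71). Were each given 3 read ends, the number that a count of 0 allows, the scores at these positions would be 0.884 to 0.957. In wild type 2 positions had none, LSU-Am2280 and LSU-Am2281, both also at 0 in the knock-out. The shallower library gave the greater number, and the share of positions at 0 was not compared at equal depth.

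The called site was LSU-Um2421, guided by snR78, with 28 read ends in wild type, against 27 in the knock-out. It scored 0.930 (0.898 to 0.953) and 0.444 (0.183 to 0.636), a difference of -0.49 (-0.75 to -0.29). Of its read ends 21 were RNA 3' ends in wild type, against 25 in the knock-out. From the RNA 5' ends, 7 and 2, a difference of -0.06 (-0.29 to 0.02) was obtained, and the call was lost. The knock-in runs had 10 and 210 read ends there and scored 0.872 and 0, so that the difference of the knock-out from run 1 was -0.43 and from run 2 was 0.44. The direction at this site depended on the reference library.

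The sites with the next largest differences did not reach a call, though each of the 4 did under other settings. LSU-Um2347 (snR65), the least protected ribose site in wild type, scored 0.612 (191 read ends) and 0.454 (37 read ends), a difference of -0.16 (-0.38 to 0.02). LSU-Cm2948 (snR69), in the peptidyl transferase region, scored 0.825 in wild type (41 read ends) and 0.967 in the knock-out (1 read end), a difference of 0.14 (-0.02 to 0.21). LSU-Gm867 (snR50) scored 0.949 and 0.810, with 19 and 9 read ends, and LSU-Um898 (snR40) scored 0.849 and 0.732, with 90 and 14. Their differences were -0.14 (-0.31 to -0.03) and -0.12 (-0.30 to 0.01). At LSU-Gm867 the knock-in libraries were lower than wild type as well, at 0.823 in whole-cell RNA and 0.549 in LSU rRNA. A call was made at LSU-Um2347 with 2 flanking positions (-0.23), at LSU-Cm2948 from RNA 3' ends alone (0.20), and from RNA 5' ends alone at LSU-Gm867 (-0.22) and LSU-Um898 (-0.26).

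**Figure D2:**
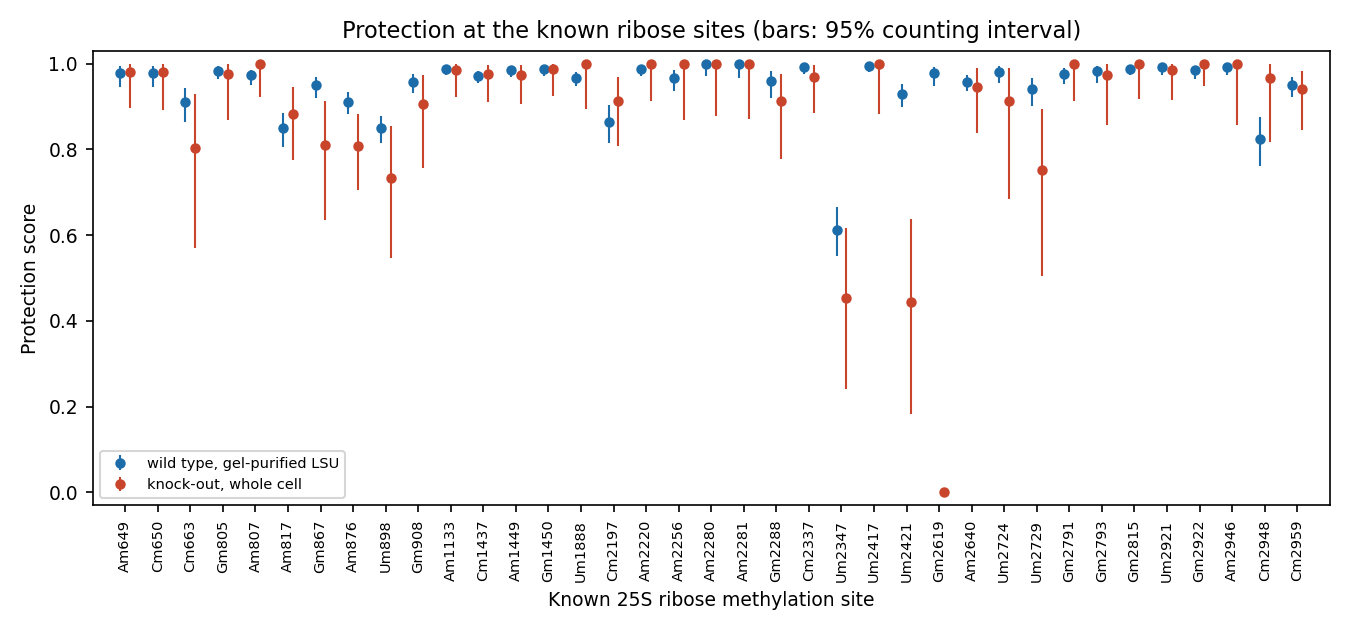
Protection score (y axis, from 0 for none to 1 for full protection) at the 37 known ribose methylation sites of 25S rRNA (x axis, in order along the rRNA) in wild type and the knock-out. Points are scores of 1 library each and bars are 95% counting intervals, which have no width where a score was set to 0. Gm2619 drops from 0.978 to 0, Um2421 from 0.930 to 0.444, and 28 of the other 36 sites differ by less than 0.1.

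Read ends at the ribose sites were also summed, a measure in which neighbours play no part. The 36 other sites together had 752 read ends in wild type, against 168 in the knock-out, which were 6.12 and 7.82 per 10000. The ratio was 1.28 (1.07 to 1.51), and without LSU-Um2421 it was 1.11 (0.924 to 1.34). For comparison, the 36 sites had 13.5 per 10000 in knock-in whole-cell RNA and 21.5 in knock-in LSU rRNA. The knock-out was thus the library nearest to wild type in the residual read ends at its protected sites. Only 6 of the 37 ribose sites held the 50 read ends required for a ratio of their own. LSU-Gm2619, with 5 read ends in wild type, did so only through the knock-out, so that the number of higher sites among the 6 is not a result. LSU-Gm2619, LSU-Um2421 and LSU-Am876 (snR72) had at least 2-fold higher shares in the knock-out, as did 12.7% of all 3357 positions tested, and nothing is read from this count. At LSU-Am876, with 49 read ends in wild type, against 21 in the knock-out, the ratio was 2.45 and the scores were 0.911 and 0.808.

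Over the 30 known pseudouridines of 25S rRNA the median score was 0.690 in wild type, against 0.637 in the knock-out. Their median difference was -0.07. Over all scored positions it was 0, but the median wild-type score there was 0.0429, which leaves little room to fall. The median differences are thus not a like comparison. From RNA 5' ends alone the median difference of the pseudouridines was 0.0319, of the opposite sign. Against the pooled knock-in runs it was -0.00542. By the rule above 5 were lower (16.7%) and 1 was higher (3.33%), beside 10.5% and 15.8% of all positions. Of the 30, 25 scored at least 0.5 in wild type, and all 5 lower positions were among these 25 (20.0%). Of the 222 unlisted positions with wild-type scores in that range 50.5% were lower. Those 222 were picked by the wild-type score that enters the difference, which favours falls, whereas the pseudouridines came from a list. No ranking of pseudouridines against unlisted positions is drawn from these shares. The SD of the difference was 0.212 over the 30 pseudouridines and 0.1005 over the 36 other ribose sites. For pseudouridines it was smaller than the 0.333 between the runs of the knock-in whole-cell sample. It was larger than the 0.125 between knock-in LSU rRNA and wild type. Of the 26 with 50 read ends, 5 (19.2%) had 2-fold higher and 6 (23.1%) had 2-fold lower shares of read ends. Over all 3357 positions tested these shares were 12.7% and 16.4%. Of the higher ones, LSU-Psi960, LSU-Psi990, LSU-Psi2191 and LSU-Psi2880 had 45, 47, 31 and 45 read ends in wild type. They passed the filter of 50 only through their read ends in the knock-out, so the count of higher pseudouridines is not a result. The 30 pseudouridines together had a ratio of 0.998 (0.912 to 1.09).

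The lower pseudouridines each have a different H/ACA guide. LSU-Psi990 (snR49) scored 0.872 with 47 read ends in wild type and 0.238 with 49 in the knock-out, a difference of -0.63 (-0.87 to -0.43). LSU-Psi2944 (snR37) scored 0.683 and 0.123, with 96 and 23 read ends. At LSU-Psi2944 the call was lost in each end type taken alone, with 0.05 (-0.23 to 0.13) from RNA 3' ends and -0.16 (-0.35 to 0) from RNA 5' ends. The combined knock-in runs scored 0.604 at LSU-Psi990 and 0.166 at LSU-Psi2944, between wild type and the knock-out in both cases. By run they were 0.854 and 0.482 at LSU-Psi990 and 0 and 0.514 at LSU-Psi2944.

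LSU-Psi2264, 1 of the targets of snR3, scored 0.677 in wild type, against 0.308 in the knock-out, with 77 and 27 read ends, and 0.255 and 0.889 in the knock-in runs. The remaining lower positions, named after their values were seen, were LSU-Psi2191 (snR32), at 0.823 and 0.494, and LSU-Psi966 (snR43), at 0.613 and 0.410. There the combined whole-cell knock-in runs were near the knock-out, at 0.4999 and 0.414, and knock-in LSU rRNA scored 0.704 and 0.484. All 5 lower pseudouridines also scored below wild type in the combined whole-cell knock-in runs, as did 18 of all 30. The falls at these 5 were thus not particular to the knock-out in direction, and both comparisons share the wild-type score. From RNA 5' ends alone the intervals at LSU-Psi2264 and LSU-Psi966 held 0.

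Higher values were found at LSU-Psi2314 (snR86), which scored 0.424 with 151 read ends in wild type and 0.711 with 10 in the knock-out. Its difference of 0.29 (0.02 to 0.47) was the 1 past the limit, and in each end type taken alone its interval held 0. The knock-in libraries scored 0.701 (0.414 and 0.910 by run) and 0.663. LSU-Psi1124 (snR5) and LSU-Psi776 (snR80) differed by 0.20 (-0.01 to 0.34) and 0.18 (0.08 to 0.26), and neither met both criteria. LSU-Psi1124 had 216 read ends in wild type, against 13 in the knock-out, and LSU-Psi776 had 118 and 7.

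The 6 base modifications are methyl groups on the base, which leave the 2'-hydroxyl free. Of these, 1 score was lower (16.7%) and 2 were higher (33.3%) in the knock-out, beside 10.5% and 15.8% of all scored positions. With 6 positions nothing is read from these counts. LSU-m5C2278, made by Rcm1, had 45 read ends in wild type, against 42 in the much smaller knock-out library, and its score was 0.742 (0.654 to 0.812) and 0. Of the 42 read ends 40 were RNA 3' ends, whereas the score from the RNA 5' ends differed by 0.450 (-0.00386 to 0.780), in the opposite direction. In the knock-in, LSU-m5C2278 had 402 read ends in whole-cell RNA (7 and 395 by run) and 40 in gel-purified rRNA, with scores of 0 (0.649 and 0 by run) and 0.791. The knock-out thus shared the value of 1 whole-cell run, while the other run and both gel-purified libraries scored from 0.649 to 0.791.

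LSU-m1A645, made by Rrp8, had 248 and 23 read ends and scored 0 in wild type and 0.443 (0.154 to 0.649) in the knock-out. LSU-m1A2142, made by Bmt2, had 135 and 11 and scored 0.402 and 0.706. At both m1A positions the combined whole-cell knock-in runs were near the knock-out, at 0.593 and 0.681, and the gel-purified knock-in near wild type, at 0 and 0.378. By run the whole-cell scores were 0 and 0.732 at LSU-m1A645 and 0.484 and 0.831 at LSU-m1A2142. The part of the RNA preparation in these values was not tested.

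The remaining base modifications were not called. LSU-m3U2634 (Bmt5), 15 nucleotides from the target, scored 0 in wild type, with 562 read ends, and 0.167 (0 to 0.410) in the knock-out, with 40. LSU-m3U2843 (Bmt6) scored 0.454 and 0.269, a difference of -0.18 (-0.48 to 0.13). LSU-m5C2870 (Nop2) scored 0 in all 4 libraries, with 375 read ends in wild type, against 136 in the knock-out.

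**Figure D3:**
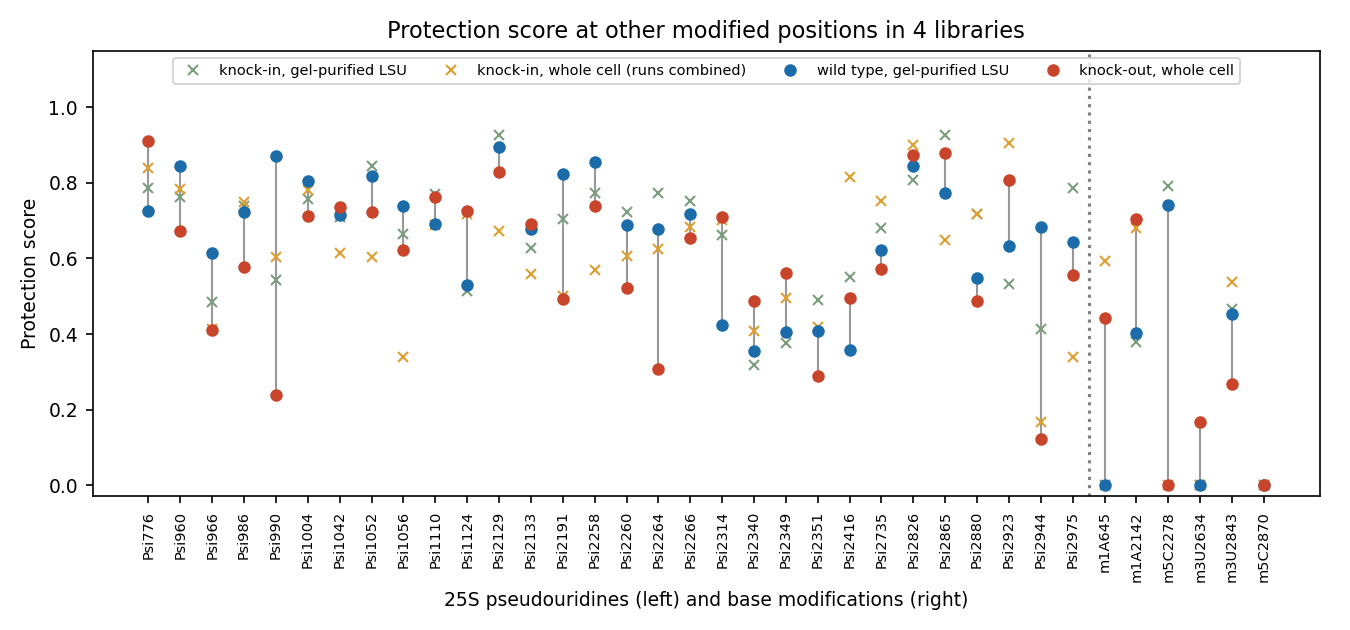
Protection score (y axis) at the 30 pseudouridines and, right of the dotted line, the 6 base modifications of 25S rRNA (x axis) in 4 libraries, with a grey line from the wild-type to the knock-out score. The scores of Psi990 fall from 0.872 to 0.238 and of m5C2278 from 0.742 to 0, and the knock-in whole-cell score at m5C2278 is also 0.

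A pair of positions outside the lists of known sites was named for their guides. LSU-U2954, the target of the artificial guide of the knock-in, had 181 read ends in wild type, against 66 in the knock-out, and scored 0.376 (0.275 to 0.465) and 0, beside 0.894 and 0.924 in the knock-in libraries. Its read ends in the knock-out were 1.30 times the mean of the flanks (0.993 to 1.68). LSU-Gm2395, a site predicted for snR190, scored 0 in both libraries, with 658 and 148 read ends.

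Unlisted positions, those in none of the modification lists, differed in both directions. Of 3317 with at least 50 read ends over both libraries, 415 (12.5%) had at least a 2-fold higher share of read ends in the knock-out and 544 (16.4%) at least a 2-fold lower share, with a counting interval that excluded 1. The median log2 ratio was -0.11, and with the ratios scaled to their median the counts were 491 and 452. In the comparison of the knock-in runs with each other 29.6% were 2-fold higher and 19.1% lower. Counted in either direction, such changes were at 48.7% between these runs of 1 sample and at 28.9% between knock-out and wild type. Among the pairs of libraries compared here, the runs differed most. Against wild type, knock-in LSU rRNA had 20.4% and the pooled whole-cell runs 25.9%. The knock-out had 17.3% against the pooled runs, 34.7% against run 1 and 29.7% against run 2. Spearman's rho of the read ends over the 3396 positions, which share fragments and base composition with their neighbours, was 0.435 between knock-out and wild type and 0.215 between the runs.

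By score, 345 unlisted positions were lower (10.4%) and 530 higher (16.0%) in the knock-out, of 3309. Where a score can go depends on where it starts, and the call is therefore given by wild-type score. Of 222 unlisted positions that scored at least 0.5 in wild type, 50.5% were lower and 1.80% higher, and of the 828 from 0.2 to 0.5, 28.1% were lower. Of the 2259 below 0.2, 18.9% were higher. The 36 other ribose sites, of which 35 scored at least 0.8 in wild type, had 1 lower score. This is not a like comparison with the 50.5%. The 222 unlisted positions were picked by the wild-type score that enters the difference, which favours falls, whereas the ribose sites came from a list. Their median wild-type scores were 0.594 and 0.974.

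After LSU-Gm2619, the largest falls in score were at LSU-113, from 0.796 to 0 with 68 and 111 read ends, and at LSU-634, from 0.773 to 0 with 79 and 35. In the knock-in runs the scores were 0.541 and 0 at LSU-113 and 0.693 and 0 at LSU-634, and in knock-in LSU rRNA 0.778 and 0.639. LSU-2666 fell from 0.764 to 0 and was also at 0 in both knock-in libraries. The largest gain apart from LSU-2648 was at LSU-2415, from 0 with 386 read ends to 0.762 with 7. These positions were named after their values were seen.

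The unlisted positions with the highest ratios also had many read ends in the whole-cell knock-in RNA. LSU-1556 had 202 read ends in wild type, 983 in the knock-out, 6028 in knock-in whole-cell RNA and 543 in knock-in LSU rRNA. Of the 983 in the knock-out 973 were RNA 3' ends. LSU-439 had 283, 1096, 2590 and 703 read ends in the same order, and 52 of the 1096 were RNA 3' ends. The ratios of knock-out to wild type were 27.8 (23.9 to 32.6) and 22.2 (19.4 to 25.3).

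Next came LSU-2560, LSU-2889 and LSU-1981, with ratios of 11.9, 11.1 and 10.4. In knock-in whole-cell RNA the ratio to the same wild-type library was 49.9 at LSU-1556, 15.3 at LSU-439, 41.5 at LSU-2560, 18.7 at LSU-2889 and 1.65 at LSU-1981. Run 1 held 90 of the 6028 read ends at LSU-1556 and 2 of the 2210 at LSU-2560, so that run 2 supplied nearly all of them.

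The lowest ratio was found at LSU-2648, 29 nucleotides from the target, with 271 read ends in wild type, against 1 in the knock-out, a ratio of 0.0211 (0.000533 to 0.119). The knock-in had 24 in whole-cell RNA and 101 in LSU rRNA, ratios of 0.148 and 0.383. Its score was 0.197 in wild type, against 0.976 in the knock-out, at a position with no listed modification. LSU-2825, LSU-386, LSU-390 and LSU-1084 followed with ratios of 0.0698, 0.0787, 0.0955 and 0.0994. LSU-386 had 436 read ends in wild type, against 6 in the knock-out, and LSU-390 had 899 and 15.

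**Figure D4:**
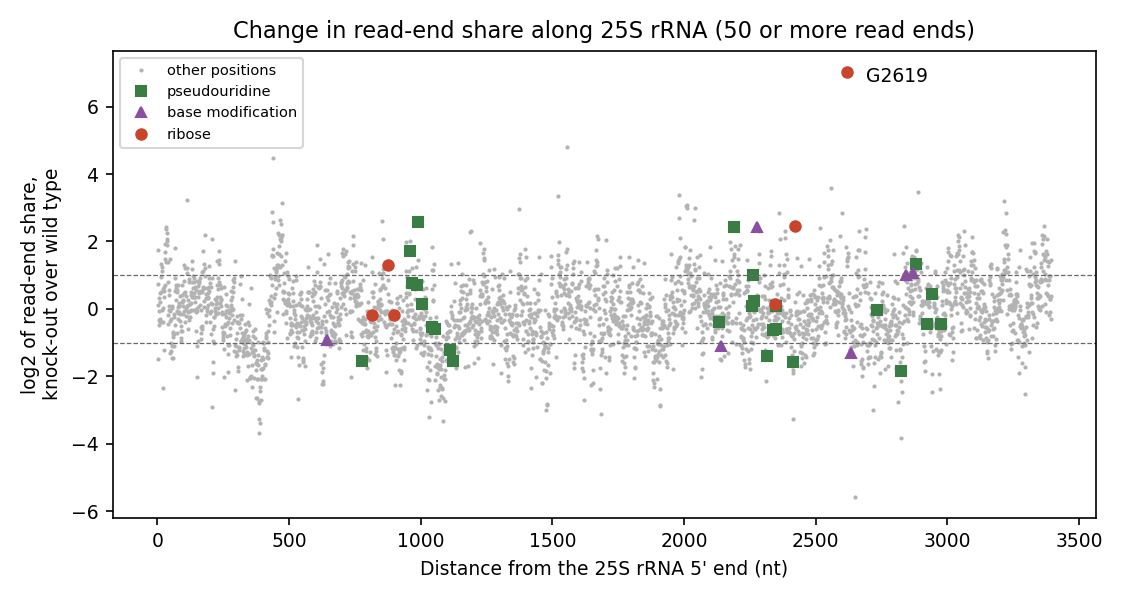
Log2 ratio of the share of read ends, knock-out over wild type (y axis), at the 3357 positions of 25S rRNA with at least 50 read ends over both libraries (x axis, distance from the 5' end in nucleotides), with dashed lines at 2-fold. Modified positions are coloured by kind, and 6 ribose sites had enough read ends to be drawn. G2619, which is drawn only through its read ends in the knock-out, stands at a log2 ratio of 7.03 above all other positions drawn.

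Called positions were not spread evenly along the rRNA. In 12 windows of 283 positions, the share of tested unlisted positions with a 2-fold lower share of read ends ranged from 6.03% in the last window, positions 3114 to 3396, to 37.3% between positions 850 and 1132. It was 32.9% between positions 284 and 566. The share with a 2-fold higher value ranged from 6.38% between positions 1699 and 1981 to 22.2% between positions 2831 and 3113, and was 20.6% in the last window. The window that begins at position 2548 and holds LSU-G2619 had 10.3% higher and 20.2% lower.

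**Figure D5:**
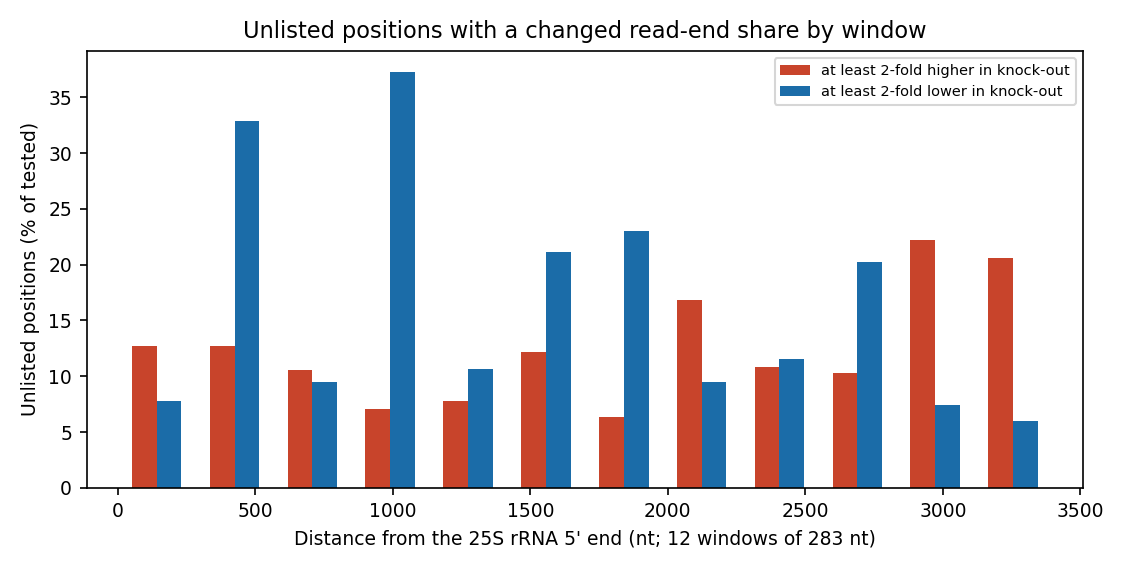
Percentage of tested unlisted positions (y axis) whose share of read ends was at least 2-fold higher or lower in the knock-out, in 12 windows of 283 nucleotides along 25S rRNA (x axis). Lower positions reach 37.3% in the window of positions 850 to 1132 and higher positions 22.2% in that of positions 2831 to 3113.

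Called positions often lay in stretches. There were 10 stretches of at least 6 successive positions with 2-fold higher shares in the knock-out, covering 93 positions, and 12 stretches with lower shares, covering 116. The longest ran from position 1061 to 1085, 25 positions with 10291 read ends in wild type, against 490 in the knock-out, a 3.67-fold lower share. Positions 382 to 400 had 12128 and 468 read ends, a 4.53-fold lower share. Positions 435 to 442, with 2914 and 2849 read ends, had a 5.59-fold higher share, and positions 462 to 475 a 4.42-fold higher share. The target lay in 1 of the higher stretches, positions 2617 to 2623.

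Over positions 382 to 400 the knock-in ratios to the same wild-type library were 0.571 in whole-cell RNA and 0.297 in LSU rRNA. Over positions 435 to 442 they were 2.86 and 1.39. Shifts of whole stretches move the read-end share of every position in them, which the protection score, taken relative to the neighbours, removes in part. With shares computed within 25 positions on each side instead of the whole 25S rRNA, 330 unlisted positions were 2-fold higher and 416 lower, and the ratio at LSU-G2619 was 127.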

How the data were processed

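Each sample file was deposited by the authors as 6 tracks in 1 column, per the file headers: raw counts of RNA 3' ends, of RNA 5' ends and of both, followed by 3 of the authors' own scores. Of the deposited scores only Score A was read. Per the submitters' processing notes, the tools were cutadapt 1.2 and Bowtie2 2.1.0. The header of the knock-in LSU file records read handling that the other headers do not state. At all 3396 positions of 25S rRNA the combined counts were the sum of both end types.

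The score used 6 positions on each side with weights from 1 to 0.5, so 3384 positions were scored. Score intervals combined exact Poisson limits of a position with normal limits of its flanks. Intervals of ratios were exact (Clopper-Pearson, conditional binomial). Both cover counting error only and were tested on simulated data. Calls required a score difference of 0.2, or a fold of 2 with 50 read ends. The 37 ribose sites and 30 pseudouridines, all in the deposited annotation, and 6 base modifications, 5 of them in it, came from general knowledge of yeast rRNA. Members and lists were chosen with earlier results of these data known. Named positions were the target and its neighbours, ribose sites near it, called ribose sites and the 5 next, the 3 pseudouridines and base modifications with the largest differences each way, the 5 most changed unlisted positions each way, LSU-U2954 and LSU-Gm2395. Exceptions are marked. Python 3.11.15, numpy 2.4.6, scipy 1.17.1 and pandas 2.3.3 were used. Alternatives changed the ends, flanks, reference, limits and scaling. No 25S or snoRNA sequence was used here.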

Additional observations from a re-analysis of the deposited data

How the results depend on the processing

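No paired analysis was possible because each group had 1 sample. The score at LSU-G2619 was lower in the knock-out under all 11 alternatives, by -0.889 against the pooled whole-cell knock-in runs, -0.895 against knock-in LSU rRNA, -0.927 with the authors' deposited Score A, and -1.63 without setting negative scores to 0. Against run 1 and run 2, chosen after the data had been seen, it was -0.906 and -0.882. Its read-end ratio was 34.2 with 5' ends alone and 16.2 against the pooled runs. The 1 lower site among the other 36 ribose sites became 3 with 3' ends alone, 2 with 5' ends alone, 2 with 2 flanking positions, 4 with a limit of 0.1, 9 with Score A, which was called by size alone, and 0 against the pooled runs and against run 2. The count of higher sites, 0, became 1 with 3' ends alone, 1 with Score A, 2 against the pooled runs, 7 against knock-in LSU rRNA, 2 against run 1 and 3 against run 2. The median difference of these sites became 0.0284, 0.0553, 0.0190 and 0.0303 against the pooled runs, knock-in LSU rRNA, run 1 and run 2, and -0.0635 with Score A. The pseudouridine median became 0.0319 with 5' ends alone. Against the pooled runs, knock-in LSU rRNA, run 1 and run 2 it was -0.00542, -0.0645, 0.0235 and -0.0341, so its size and sign depended on the reference. With a fold of 3, 159 unlisted positions were higher and 194 lower, and against the pooled runs 295 were lower. Apart from the construction of each alternative, the cause was not tested. In the knock-out, flanking means of 23.1 to 109.5 read ends limit what can be resolved at the ribose sites. At a count of 0 the counting intervals reached down to 0.856, and 3 read ends instead would give scores from 0.884.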

Other observations

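Some positions outside the lists had few read ends relative to their flanks in several libraries. Scores of at least 0.8 with a flanking mean of at least 10 were found at 9 unlisted positions in wild type, against 18 in the knock-out, of 3309 scored, and 3 were shared. These were LSU-234, at 0.899 and 0.808, LSU-862, at 0.882 and 0.887, and LSU-1959, at 0.818 and 0.951, named after their values were seen. LSU-234 and LSU-1959 also exceeded 0.8 in both knock-in libraries, with 0.852 and 0.924 at LSU-234 and 0.812 and 0.892 at LSU-1959. LSU-862 scored 0.831 in knock-in whole-cell RNA and 0.506 in knock-in LSU rRNA. At LSU-234 the read ends were mostly RNA 5' ends in wild type, where 2 of 44 were RNA 3' ends, and mostly RNA 3' ends in the knock-out, where 18 of 21 were.

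The 5' terminus of 25S rRNA differed as well. LSU-2 had 1332 RNA 5' ends in wild type, against 783 in the smaller knock-out library. Per 10000 read ends of both kinds it had 10.9 in wild type, 36.4 in the knock-out, 34.98 in knock-in whole-cell RNA and 18.5 in knock-in LSU rRNA. Both whole-cell libraries were above both gel-purified ones. At the adjacent LSU-3 the knock-out was lower than wild type, at 0.512 against 1.42. At the 3' terminus LSU-3395 had 4.39 and 3.58 per 10000 (wild type, then knock-out), and 4.95 and 4.60 in the knock-in libraries. The adjacent LSU-3394 went the other way between wild type and knock-out, at 2.46 and 3.21, so no difference of the 3' terminus is read from LSU-3395. These terminal positions were chosen after their values were seen.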
